A study of Homo sapiens with 21 samples.

Results

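Aminoacyl-tRNA synthetases are the enzymes that join each amino acid to its transfer RNA. The data cover 36 genes of the family, out of 60671 genes in the table, and the rule that picked them used their names and no expression value, although earlier results of these data were known. Of the 36, 20 encode enzymes of the cytosol and 16 encode enzymes of mitochondria. Among the cytosolic enzymes, 7 (EPRS1, IARS1, KARS1, LARS1, MARS1, QARS1 and RARS1) sit in the multi-synthetase complex and 13 act outside it. All 36 genes passed the filter on low counts, at least 1 CPM (counts scaled to the size of each library) in at least 8 of the 21 libraries, as did 14012 genes in all.

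Polyadenylated RNA was sequenced from OCI-AML3 cells, an established human line of acute myeloid leukaemia, and from HEK293T cells, an established human embryonic kidney line. OCI-AML3 cells were untreated at 0 h, were given DMSO for 4 h or 24 h, or were given tunicamycin at 1 μg/mL for 4 h or 24 h. HEK293T cells were given DMSO or the same dose of tunicamycin for 24 h only, and any earlier time of this line was not used here. Each of the 7 groups held 3 libraries, and the labels do not say whether these came from separate cultures, so p-values measure the spread between these libraries, which may be technical. No gene was targeted in any group, and each cell type is a single line. The libraries held 13838480 to 19961819 counts.

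The myeloid genes PTPRC, SPI1, CD33 and LYZ had group means of 56.2 to 431 CPM in OCI-AML3 cells and of at most 0.151 CPM in HEK293T cells, while MPO was at 1.03 to 1.52 CPM in OCI-AML3 cells. LIN28B, which is expressed in HEK293T cells, had group means of 106 and 109.6 CPM there after DMSO and tunicamycin and of at most 0.0242 CPM in OCI-AML3 cells. Genes of the ER stress response marked the treated libraries. ATF4, a transcription factor of the stress response, rose by 1.01, 0.90 and 0.59 on the log2 scale in OCI-AML3 cells at 4 h, at 24 h and in HEK293T cells, in that order. In the same order, ASNS (asparagine synthetase) rose by 2.44, 1.71 and 1.95, TRIB3 by 4.64, 1.99 and 2.53, and EIF2AK3, which encodes the stress sensor PERK, by 1.64, 1.47 and 1.31. EIF2AK4, which encodes the sensor of uncharged tRNA GCN2, did not pass the test in any of the 3 comparisons, with log2 fold changes of -0.06, -0.09 and 0.00.

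Tunicamycin blocks the glycosylation of proteins in the endoplasmic reticulum and so activates PERK, which phosphorylates the translation factor eIF2α and favours the translation of ATF4. ATF4 binds C/EBP-ATF response elements, and several cytosolic synthetase genes, together with ASNS, are known targets of it. The mitochondrial synthetases are encoded in the nucleus, imported, and charge the tRNAs with which mitochondria translate the few proteins of their own genome. GARS1 and KARS1 each supply both compartments, and both are counted as cytosolic in every count, median and sum below. FARSA and FARSB encode the 2 subunits of one cytosolic enzyme, and EPRS1 carries the activities for glutamate and for proline.

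The start regions of the genes were searched for the core of the C/EBP-ATF response element, TGATGNAA, on both strands. The windows were those of RefSeq on GRCh38.p14, from 250 bases before to 50 bases after a start. Of the 36 genes, 30 had at least 1 window (not AARS2, LARS1, TARS3, VARS1, VARS2 and YARS1), with 39 windows in all. The core was present in 7 of 16 cytosolic genes with a window (43.8%) and in 1 of 14 mitochondrial genes (7.14%), against 1217 of 27305 genes in all (4.46%). A second motif, the ER stress element, was searched as CCAAT, 9 further bases of any kind and CCACG, on both strands. It was found in 0 of the 30 genes and in 25 of the 27305 (0.0916%). The matches are shown with their neighbouring bases because 7 of the 8 genes that hold one are among the cytosolic genes whose values are given next. Each run is printed 5′ to 3′ on the strand of the gene, with the core in capitals (TTGCATCA and TTTCATCA are cores read on the opposite strand).
ASNS, shown for comparison, chr7:97872458-97872487, minus strand: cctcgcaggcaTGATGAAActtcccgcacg
AARS1, chr16:70289675-70289704, minus strand: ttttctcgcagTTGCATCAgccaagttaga
CARS1, chr11:3057407-3057436, minus strand: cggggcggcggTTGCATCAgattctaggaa
GARS1, chr7:30594834-30594863, plus strand: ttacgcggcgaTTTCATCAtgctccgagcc
IARS1, chr9:92293692-92293721, minus strand: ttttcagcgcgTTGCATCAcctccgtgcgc
MARS1, chr12:57488053-57488082, plus strand: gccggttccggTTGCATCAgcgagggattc
NARS1, chr18:57621804-57621833, minus strand: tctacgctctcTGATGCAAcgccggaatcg
TARS1, chr5:33440956-33440985, plus strand: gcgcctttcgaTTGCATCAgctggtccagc
YARS2, mitochondrial, chr12:32756076-32756105, minus strand: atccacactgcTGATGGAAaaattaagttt
In these windows the first base of the core lay at -2 from the start in CARS1, -4 in MARS1, -13 in IARS1, -33 in GARS1 and -187 in AARS1, and at 3 in TARS1 and 15 in NARS1. It lay at -197 in YARS2 and at -68 in ASNS. These positions count from the RefSeq start of the window that holds the core. The runs of the 7 cytosolic genes lie within the bounds of their genes in GENCODE release 44, so another start would give other positions. The TGATGCAA form, read on either strand, was the one found in AARS1, CARS1, IARS1, MARS1, NARS1 and TARS1, and GARS1 had the TGATGAAA form that ASNS has. WARS1, SARS1 and EPRS1, which rose in all 3 comparisons described next, had a window and no core in it. A match is a description of the letters in this window, and binding was not measured in these data.

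Tunicamycin was compared with DMSO in each cell line and at each time to ask how the 2 classes of enzyme changed. Most cytosolic genes rose in each of the 3 comparisons, whereas the mitochondrial genes, apart from 2 that rose at 4 h, fell or did not pass the test. In OCI-AML3 cells at 4 h, 13 of 20 cytosolic genes rose and 3 fell at an adjusted p of at most 0.05 (edgeR's quasi-likelihood test with Benjamini-Hochberg adjustment over 14012 genes), where 18.5% of all genes rose and 18.9% fell. Of the 16 mitochondrial genes, 2 rose and 6 fell. At 24 h, 12 cytosolic genes rose and 7 fell, and 0 mitochondrial genes rose and 11 fell, where 23.5% of all genes rose and 27.7% fell. In HEK293T cells at 24 h, 12 cytosolic genes rose and 3 fell, and 0 mitochondrial genes rose and 5 fell, where 12.6% of all genes rose and 13.1% fell. With a library left out, the cytosolic falls at 4 h numbered 1 without tunicamycin replicate 1 or 2, and the mitochondrial rises at 4 h numbered 1 without DMSO or tunicamycin replicate 2 and 3 without DMSO replicate 1. The mitochondrial falls at 24 h in OCI-AML3 cells numbered 7 without DMSO 24 h replicate 3 and those in HEK293T cells numbered 2 without tunicamycin replicate 2.

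The median log2 fold change of the cytosolic genes was 0.48 in OCI-AML3 cells at 4 h, 0.40 at 24 h and 0.46 in HEK293T cells. For the mitochondrial genes it was -0.09, -0.34 and -0.12 in the same order, and for all genes -0.02, -0.01 and -0.01. With a library left out the mitochondrial median at 4 h ran from -0.14 to -0.05. The 13 cytosolic genes outside the multi-synthetase complex had medians of 0.74, 0.56 and 0.52, and the 7 genes within it had medians of 0.28, 0.09 and 0.41. Standard errors of single genes ran from 0.05 to 0.14 on the log2 scale over the 3 comparisons.

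**Figure D1:**
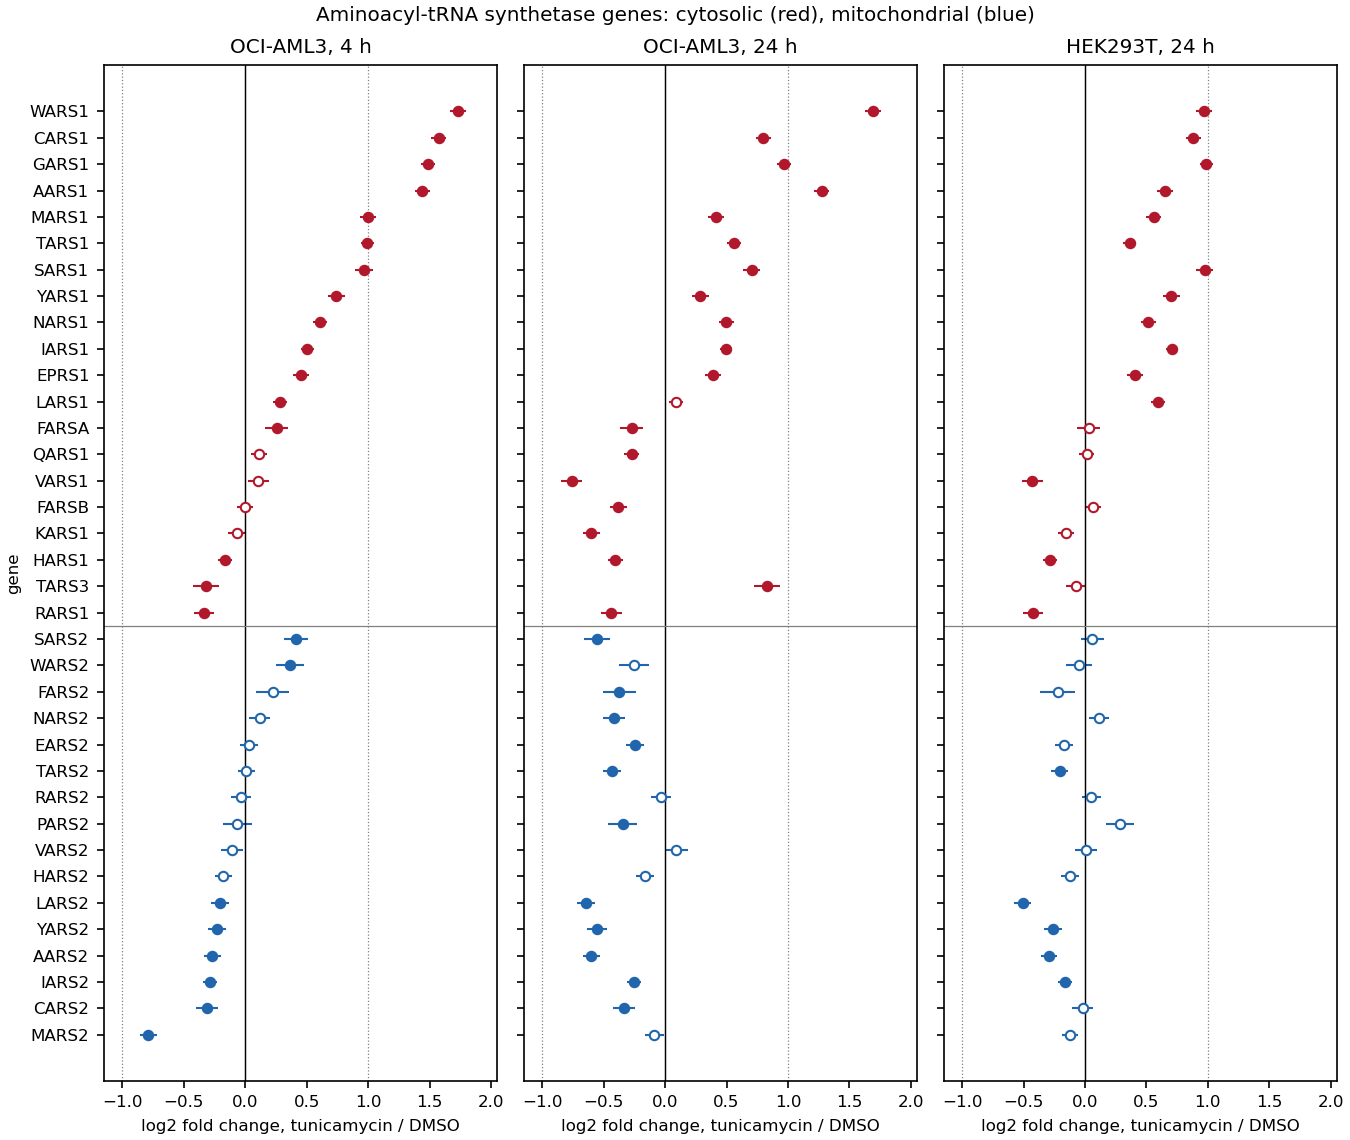
Log2 fold change of each of the 36 genes, tunicamycin over DMSO, in the 3 comparisons, with cytosolic genes in red, mitochondrial genes in blue, bars of 1 standard error, filled points for an adjusted p of at most 0.05 and dotted lines at -1 and 1. The red points spread from -0.76 (VARS1) to 1.73 (WARS1), while the blue points lie between -0.79 (MARS2) and 0.41 (SARS2).

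The 3 comparisons share no library. Across them 11 cytosolic genes rose in all 3, namely AARS1, CARS1, EPRS1, GARS1, IARS1, MARS1, NARS1, SARS1, TARS1, WARS1 and YARS1. Of these, GARS1 also supplies mitochondria. Among the genes counted as mitochondrial 0 rose in all 3, where 4.45% of all genes did. These 11 genes kept each of these calls under all 14 alternatives run for each comparison. Conversely, 2 cytosolic genes (HARS1 and RARS1) and 4 mitochondrial genes (AARS2, IARS2, LARS2 and YARS2) fell in all 3, where 3.85% of all genes did. Of these 6, RARS1 and AARS2 kept each call under every alternative. The mitochondrial genes HARS2, RARS2 and VARS2 passed the test in none of the 3 comparisons.

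Summed over the 20 cytosolic genes, expression in OCI-AML3 cells was 4427 ± 68.6 CPM (mean ± SD, n = 3) after DMSO for 4 h and 7454 ± 178 CPM after tunicamycin. The sum over the 16 mitochondrial genes was 934 ± 23.9 CPM and 841 ± 8.47 CPM in the same libraries, so that the ratio of the sums went from 4.74 ± 0.0727 to 8.87 ± 0.149. At 24 h the ratio was 4.63 ± 0.205 after DMSO and 7.86 ± 0.185 after tunicamycin, and in HEK293T cells it was 4.13 ± 0.0773 and 6.39 ± 0.0902. The ratio in every tunicamycin library was above that in every DMSO library of the same line and time. The untreated OCI-AML3 cells had a ratio of 4.80 ± 0.0314.

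**Figure D2:**
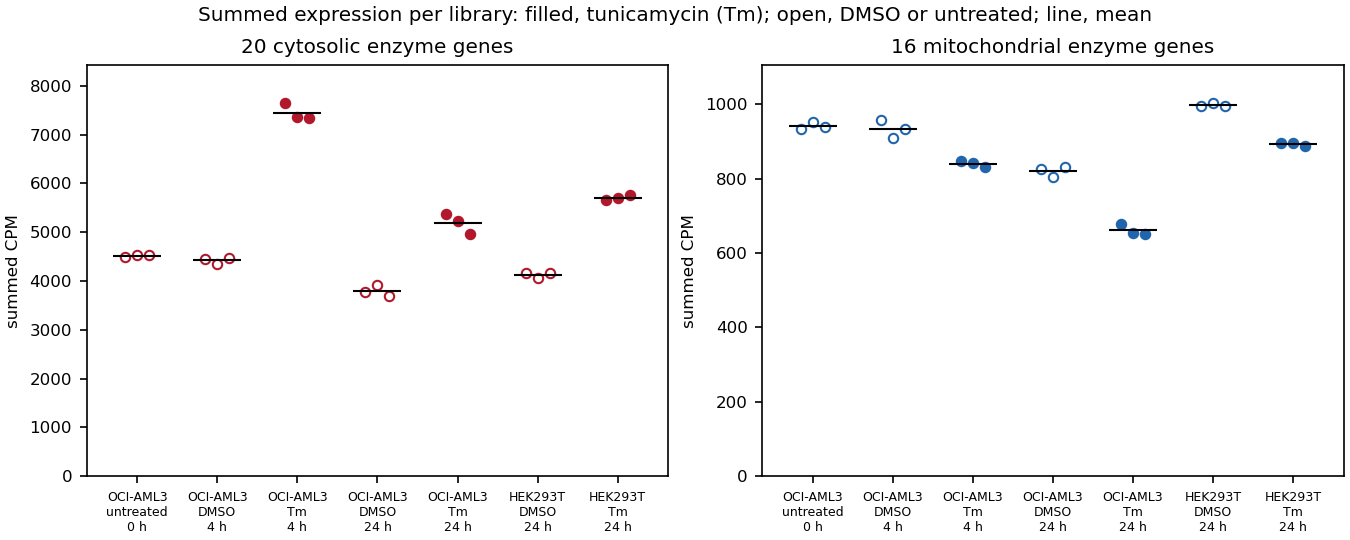
Summed CPM of the 20 cytosolic genes (left) and the 16 mitochondrial genes (right) in each library, with filled points for tunicamycin, open points for DMSO or untreated cells and a line at the mean of 3 libraries. In each pair of groups the cytosolic sum is higher and the mitochondrial sum lower after tunicamycin, with no overlap, as in OCI-AML3 cells at 4 h (7454 against 4427 CPM and 841 against 934 CPM).

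The largest rises were those of cytosolic enzymes outside the complex. WARS1, the tryptophan enzyme, stood at 223, 201 and 194 CPM in the 3 OCI-AML3 libraries given DMSO for 4 h and at 709.5, 662 and 673 CPM in those given tunicamycin. At 24 h WARS1 stood at 181, 181 and 168 CPM after DMSO and 597, 589 and 532 CPM after tunicamycin, and in HEK293T cells at 137, 129 and 129 CPM and 262, 259 and 253 CPM. In each comparison the lowest tunicamycin library was far above the highest DMSO library. The untreated OCI-AML3 libraries (196, 211 and 213 CPM) lay among the DMSO libraries of 4 h and above those of 24 h. The log2 fold changes of WARS1 were 1.73, 1.69 and 0.97 (adjusted p = 1.61e-15, 2.75e-15 and 7.48e-11, edgeR's quasi-likelihood test).

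AARS1, the alanine enzyme, stood in OCI-AML3 cells at 362, 369 and 367 CPM after 4 h of DMSO and at 1041, 973 and 969.6 CPM after 4 h of tunicamycin. At 24 h it read 369, 397 and 359 CPM after DMSO and 983, 897 and 844 CPM after tunicamycin. In HEK293T cells the AARS1 values were 218, 213 and 213 CPM and 344, 338 and 329 CPM. No DMSO library reached the lowest tunicamycin library of its comparison, and the log2 fold changes of AARS1 were 1.44, 1.28 and 0.65 (adjusted p = 1.65e-14, 1.87e-13 and 3.25e-08, edgeR). WARS1 and AARS1 were the 2 genes with a log2 fold change above 1 at both times in OCI-AML3 cells.

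CARS1, the cysteine enzyme, read 104, 96.4 and 94.2 CPM after DMSO and 301, 298 and 277 CPM after tunicamycin for 4 h. After 24 h its values were 94.95, 93.9 and 92.3 CPM and 170.5, 171 and 148 CPM, and in HEK293T cells 64.9, 64.3 and 61.7 CPM and 118, 119 and 115 CPM. The groups did not overlap, and CARS1 rose 2.98-fold, 1.74-fold and 1.84-fold (adjusted p = 3.46e-15, 5.99e-10 and 2.15e-10, edgeR).

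GARS1, the glycine enzyme, read 179.9, 177 and 187 CPM after DMSO and 523, 502 and 498 CPM after tunicamycin for 4 h. Its values at 24 h were 135, 137 and 125 CPM and 265, 258 and 253 CPM, and in HEK293T cells 174, 174 and 184 CPM and 337, 356 and 364 CPM. GARS1 was thus higher in every tunicamycin library of each comparison, with log2 fold changes of 1.49 at 4 h and 0.97 at 24 h in OCI-AML3 cells. Its rise of 0.99 on the log2 scale was the largest of the family in HEK293T cells (adjusted p = 2.71e-12, edgeR). SARS1, the serine enzyme, went from 205, 199.8 and 197 CPM to 392, 398 and 391 CPM in HEK293T cells and rose by 0.97 on the log2 scale (adjusted p = 2.24e-10, edgeR). In OCI-AML3 cells SARS1 read 149, 130.2 and 124 CPM and 279, 262 and 247 CPM at 4 h. At 24 h it read 141, 149.5 and 147 CPM and 249, 251 and 215 CPM. The groups of SARS1 did not overlap at either time, and its log2 fold changes there were 0.97 and 0.71.

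The other 3 cytosolic genes outside the complex that rose in all 3 comparisons were TARS1 (threonine) with log2 fold changes of 0.99, 0.56 and 0.36, YARS1 (tyrosine) with 0.74, 0.29 and 0.70, and NARS1 (asparagine) with 0.61, 0.50 and 0.52. Past both the adjusted p and a log2 fold change of 1 there were 4 cytosolic genes at 4 h (WARS1, CARS1, GARS1 and AARS1), 2 at 24 h (WARS1 and AARS1) and 0 in HEK293T cells, where 3.45%, 4.05% and 1.58% of all genes rose past both. Exons of each of these 4 genes overlap those of another gene on the opposite strand in GENCODE release 44, by 43 bases in AARS1 and 312 in GARS1, and with 2 genes each by 205 and 76 bases in CARS1 and 385 and 287 in WARS1. Of the 9 cytosolic genes whose exons overlap no other gene, 0 passed both thresholds in any comparison, 5, 6 and 5 rose at the adjusted p alone and 2, 3 and 2 fell. With a log2 fold change of 0.5 in place of 1, the cytosolic rises numbered 10, 7 and 10 and falls 0, 2 and 0, and the mitochondrial rises 0 in each and falls 1, 4 and 1, where 9.59%, 13.4% and 5.82% of all genes rose and 8.04%, 12.6% and 3.39% fell. MARS1, TARS1 and SARS1 lay just below a log2 fold change of 1 at 4 h, and the 4 genes past that fold became 7 without OCI-AML3 DMSO 4 h replicate 1. No cytosolic or mitochondrial gene fell past both thresholds, and no mitochondrial gene rose past both, where 1.47%, 2.26% and 0.550% of all genes fell past both in the same order.

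**Figure D3:**
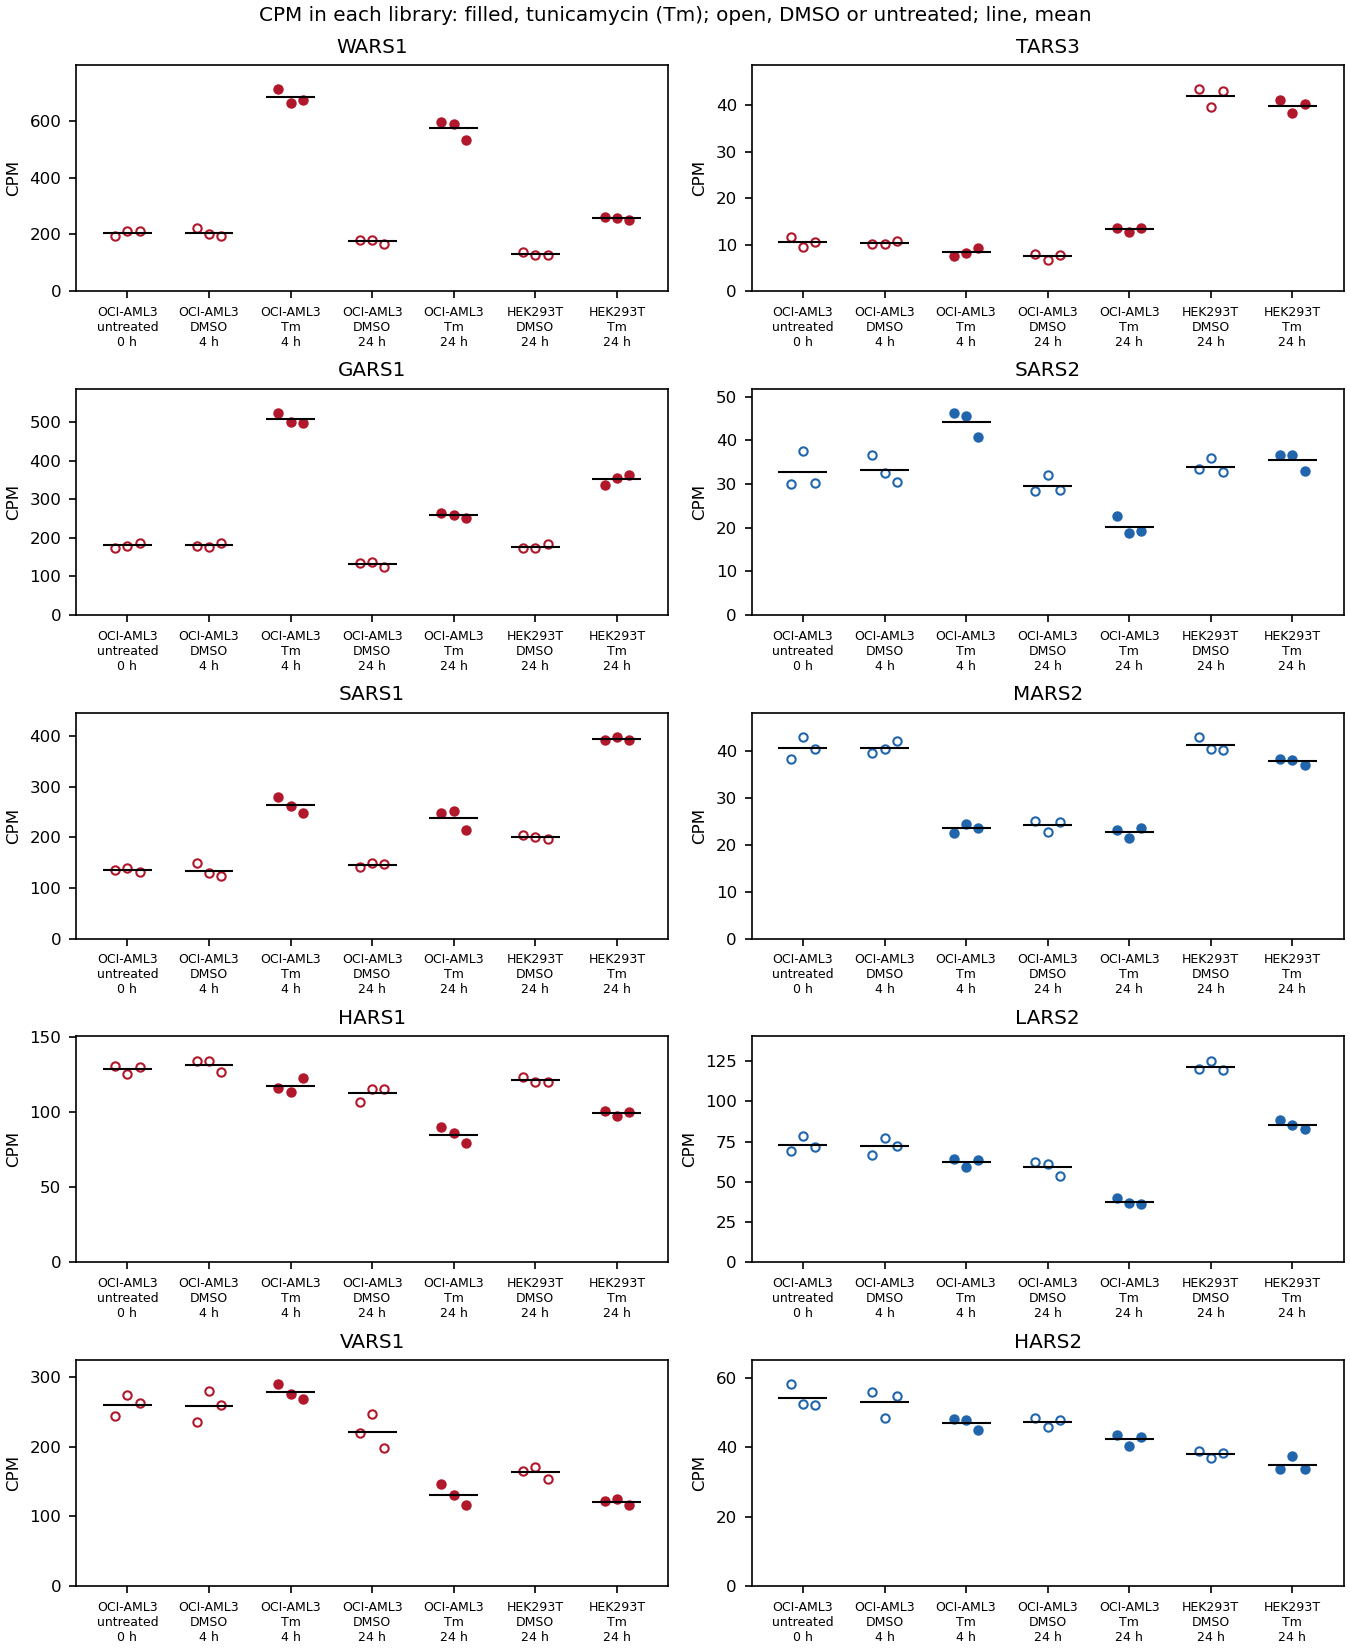
CPM of 10 genes in each of the 21 libraries, with cytosolic genes in red and mitochondrial genes in blue, filled points for tunicamycin, open points for DMSO or untreated cells and a line at the mean of 3 libraries. WARS1, GARS1 and SARS1 are higher in every tunicamycin library, LARS2 is lower in every one, TARS3 moves in opposite directions at 4 h and 24 h in OCI-AML3 cells, and MARS2 after DMSO for 24 h (mean 24.2 CPM) sits at its level after tunicamycin for 4 h (mean 23.6 CPM).

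Of the 7 cytosolic genes in the complex, EPRS1, IARS1 and MARS1 rose in all 3 comparisons. IARS1, the isoleucine enzyme, had log2 fold changes of 0.50, 0.49 and 0.71, and EPRS1 of 0.45, 0.39 and 0.41. LARS1, the leucine enzyme, rose at 4 h (0.28) and in HEK293T cells (0.59), and its value at 24 h in OCI-AML3 cells was 0.09 (adjusted p = 0.219, edgeR). There LARS1 passed in 2 of 14 alternatives, library sizes without TMM and without tunicamycin 24 h replicate 2 (adjusted p down to 0.0269, edgeR). QARS1 and KARS1, the glutamine and lysine enzymes, did not pass the test at 4 h (0.11 and -0.07) or in HEK293T cells (0.01 and -0.15). QARS1 passed at 4 h without DMSO 4 h replicate 1 (adjusted p = 0.0268, edgeR). KARS1 passed in HEK293T cells with the compared groups alone and with library sizes without TMM (adjusted p down to 0.00802, edgeR). QARS1 and KARS1 both fell at 24 h in OCI-AML3 cells, by 0.27 and 0.60 on the log2 scale. At that time the value of QARS1 ran from -0.28 to -0.17 with a library left out. KARS1 read 257, 262 and 260.3 CPM after DMSO and 179, 183 and 151 CPM after tunicamycin there, with no overlap (adjusted p = 2.08e-07, edgeR).

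MARS1, the methionine enzyme, had log2 fold changes of 1.00, 0.41 and 0.56. Its mean went from 194 to 387 CPM at 4 h in OCI-AML3 cells. Exons of MARS1 overlap those of DDIT3, the stress gene that encodes CHOP, by 355 bases on the opposite strand in GENCODE release 44. DDIT3 went from a mean of 10.997 to 454 CPM at 4 h, with log2 fold changes of 5.36, 4.33 and 3.69. Whether counting used the strand is not given in the sources used here, so reads that lie within the shared bases may fit both genes. Their part in the MARS1 values was not tested.

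RARS1, the arginine enzyme of the complex, went the other way from most of its class. It read 127, 102 and 121 CPM after DMSO and 94.9, 91.7 and 90.0 CPM after tunicamycin for 4 h. At 24 h it read 74.9, 79.6 and 89.2 CPM and 58.5, 64.1 and 57.5 CPM, and in HEK293T cells 178, 166 and 186 CPM and 129, 128 and 138 CPM. All tunicamycin libraries were below all DMSO libraries in each comparison, and RARS1 fell by 0.34, 0.44 and 0.42 on the log2 scale (adjusted p = 0.0019, 0.000148 and 0.000321, edgeR). Its level after DMSO at 24 h was already below that at 4 h in OCI-AML3 cells (log2 fold change -0.52).

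VARS1, the valine enzyme outside the complex, had the largest fall of any cytosolic gene at 24 h. It read 220.2, 246 and 199 CPM after DMSO and 146, 130.2 and 117 CPM after tunicamycin in OCI-AML3 cells, and 165, 171 and 153 CPM and 122, 126 and 116 CPM in HEK293T cells. The groups did not overlap in either line, and VARS1 fell by 0.76 and 0.43 on the log2 scale (adjusted p = 2.11e-07 and 0.000655, edgeR). At 4 h its values, 235, 280.3 and 259.6 CPM and 289.5, 276 and 269 CPM, overlapped (log2 fold change 0.11). The phenylalanine enzyme did not follow the risers either. Its subunit genes FARSA and FARSB had log2 fold changes of 0.26 and 0.00 at 4 h, -0.27 and -0.38 at 24 h and 0.03 and 0.07 in HEK293T cells, of which the rise of FARSA at 4 h and both falls at 24 h passed the test. The call of FARSA was lost in 4 of 14 alternatives at 4 h and in 8 of 14 at 24 h (adjusted p up to 0.128 and 0.378, edgeR), 4 and 5 of them with a single library left out. With a library left out the value of FARSA at 24 h in OCI-AML3 cells ran from -0.36 to -0.09.

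TARS3, a paralogue of TARS1, changed direction between the times in OCI-AML3 cells. It read 10.1, 10.2 and 10.9 CPM after DMSO and 7.55, 8.22 and 9.29 CPM after tunicamycin for 4 h, and 8.10, 6.66 and 7.78 CPM and 13.7, 12.8 and 13.5 CPM at 24 h. The tunicamycin libraries were all below the DMSO libraries at 4 h and all above them at 24 h, with log2 fold changes of -0.32 (adjusted p = 0.0192) and 0.83 (adjusted p = 1.04e-06, edgeR). In HEK293T cells the values of 43.3, 39.6 and 43.1 CPM and 41.1, 38.3 and 40.2 CPM overlapped (log2 fold change -0.07). Per kilobase, TARS3 was at 2.98 CPM and TARS1 at 157 CPM in OCI-AML3 cells after DMSO for 4 h. The call of TARS3 at 4 h was lost in 5 of 14 alternatives, 3 of them with a single library left out (adjusted p up to 0.101).

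HARS1 and HARS2, the cytosolic and mitochondrial histidine enzymes, lie head to head on opposite strands of chromosome 5. In GENCODE release 44 their exons overlap by 108 bases, and exons of HARS1 share 1090 bases with WDR55 on the opposite strand and 176 with DND1 on its own, while those of HARS2 share 152 with ZMAT2 on its own strand. Reads that lie within these bases can fit both genes, on opposite strands where counting did not use the strand. How counting divided them was not tested. HARS1 read 134, 135 and 127 CPM after DMSO and 116, 114 and 123 CPM after tunicamycin for 4 h, 107, 116 and 116 CPM and 90.0, 86.2 and 79.7 CPM at 24 h, and 123, 120.4 and 120.2 CPM and 100.97, 97.4 and 100.4 CPM in HEK293T cells. HARS2 read 56.1, 48.6 and 54.7 CPM and 48.0, 47.9 and 44.9 CPM at 4 h, 48.4, 45.9 and 47.8 CPM and 43.5, 40.5 and 42.9 CPM at 24 h, and 39.0, 37.1 and 38.3 CPM and 33.9, 37.4 and 33.7 CPM in HEK293T cells. HARS1 was lower with no overlap in all 3 comparisons and HARS2 in the 2 of OCI-AML3 cells. HARS1 fell by 0.17, 0.40 and 0.29 on the log2 scale. The values of HARS2 were -0.18, -0.16 and -0.12 (adjusted p = 0.0516, 0.064 and 0.226, edgeR). At 4 h the call of HARS1 was lost in 6 of 14 alternatives, 4 of them with a single library left out, and HARS2 passed the test in 5.

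Among the mitochondrial genes, LARS2, the leucine enzyme, had the largest fall at 24 h in both lines. It read 62.1, 61.1 and 53.8 CPM after DMSO and 40.3, 36.9 and 36.1 CPM after tunicamycin in OCI-AML3 cells, and 120.0, 125 and 119 CPM and 88.3, 85.2 and 82.9 CPM in HEK293T cells. No library of one group reached the other, and LARS2 fell by 0.65 and 0.51 on the log2 scale (adjusted p = 3.2e-07 and 9.55e-06, edgeR). At 4 h LARS2 read 66.6, 77.4 and 72.5 CPM and 64.4, 59.5 and 63.5 CPM and fell by 0.21, a call lost in 5 of 14 alternatives, 3 of them with a single library left out (adjusted p up to 0.136).

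AARS2, the alanine enzyme of mitochondria, read 53.4, 52.6 and 53.7 CPM after 24 h of DMSO and 36.7, 31.7 and 36.6 CPM after 24 h of tunicamycin in OCI-AML3 cells. In HEK293T cells it read 71.0, 70.0 and 68.9 CPM and 56.7, 57.6 and 56.7 CPM, and at 4 h in OCI-AML3 cells 56.3, 56.4 and 53.2 CPM and 43.9, 47.5 and 46.3 CPM. AARS2 was below every DMSO library in every tunicamycin library of each comparison and fell by 0.27 at 4 h, 0.60 at 24 h and 0.30 in HEK293T cells (adjusted p = 0.00301, 2.42e-07 and 0.0017, edgeR). The tyrosine enzyme YARS2, the mitochondrial gene with a C/EBP-ATF core in its window, fell by 0.23, 0.55 and 0.26. IARS2, the isoleucine enzyme, fell by 0.29, 0.25 and 0.16. The call of YARS2 was lost in 5 of 14 alternatives at 4 h, and that of IARS2 in HEK293T cells in 7 of 14, 6 of which each left out 1 of its 6 libraries (adjusted p up to 0.167). The call of YARS2 in HEK293T cells was lost without tunicamycin replicate 2 (adjusted p = 0.0861, edgeR), and that of IARS2 at 24 h in OCI-AML3 cells in the fit of the compared groups alone (0.0588).

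MARS2, the methionine enzyme of mitochondria, had the largest fall of the family at 4 h. It read 39.5, 40.5 and 42.1 CPM after DMSO and 22.5, 24.5 and 23.7 CPM after tunicamycin, a fall of 0.79 on the log2 scale with no overlap (adjusted p = 7.65e-09, edgeR). At 24 h it read 25.0, 22.8 and 24.8 CPM after DMSO and 23.2, 21.4 and 23.7 CPM after tunicamycin, which overlapped (log2 fold change -0.09). After DMSO alone it was lower at 24 h than at 4 h by 0.75 (adjusted p = 3.48e-08). In HEK293T cells MARS2 read 42.9, 40.5 and 40.1 CPM and 38.3, 38.1 and 37.0 CPM and did not pass the test (-0.12, adjusted p = 0.198).

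SARS2 and WARS2, the serine and tryptophan enzymes, were the 2 mitochondrial genes that rose at 4 h. SARS2 read 36.7, 32.6 and 30.4 CPM after DMSO and 46.2, 45.7 and 40.8 CPM after tunicamycin at 4 h, and 28.3, 32.0 and 28.6 CPM and 22.8, 18.7 and 19.2 CPM at 24 h. It thus lay above the DMSO libraries at 4 h and below them at 24 h, with log2 fold changes of 0.41 and -0.55 (adjusted p = 0.00171 and 0.00013, edgeR). In HEK293T cells its values, 33.3, 35.9 and 32.8 CPM and 36.6, 36.5 and 33.1 CPM, overlapped (0.06). SARS2 shares 1492 exonic bases with a read-through gene on its own strand, and reads that lie within those bases can fit both. How counting divided them was not tested. WARS2 read 19.3, 15.6 and 19.2 CPM and 21.3, 26.2 and 21.9 CPM at 4 h (log2 fold change 0.36, adjusted p = 0.0158, lost without DMSO or tunicamycin 4 h replicate 2, with an adjusted p up to 0.117), and its values at 24 h overlapped (-0.25).

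CARS2, the cysteine enzyme, read 52.8, 40.7 and 42.5 CPM after DMSO and 38.6, 35.6 and 35.4 CPM after tunicamycin at 4 h and fell by 0.31 on the log2 scale. Without DMSO 4 h replicate 1 this call was lost, with an adjusted p of 0.106 (edgeR). At 24 h CARS2 fell by 0.34 with no overlap, and the adjusted p was 0.0817 without DMSO 24 h replicate 3. With a library left out the value of CARS2 ran from -0.38 to -0.17 at 4 h and from -0.34 to -0.20 at 24 h. A further 5 mitochondrial genes fell at 24 h in OCI-AML3 cells, namely TARS2 (-0.43), NARS2 (-0.42), FARS2 (-0.37), PARS2 (-0.35) and EARS2 (-0.25), and of these TARS2 also fell in HEK293T cells (-0.21). At 24 h in OCI-AML3 cells the call of FARS2 was lost in 8 of 14 alternatives (adjusted p up to 0.276, edgeR) and those of PARS2 and EARS2 in 6 of 14 each (up to 0.176 and 0.141), 5 of them for each gene with a single library left out. The call of TARS2 in HEK293T cells was lost in 6 of 14 alternatives, 5 of them with a single library left out (adjusted p up to 0.128). None of the 5 passed the test at 4 h, where the log2 fold changes were 0.01 (TARS2), 0.12 (NARS2), 0.22 (FARS2), -0.07 (PARS2) and 0.03 (EARS2). FARS2 passed at 4 h without DMSO 4 h replicate 1 (adjusted p = 0.0172, edgeR). With a library left out its value at 4 h ran from 0.09 to 0.41. RARS2 and VARS2 had log2 fold changes of -0.04, -0.03 and 0.05 and of -0.11, 0.09 and 0.01. VARS2 shares 4073 exonic bases with another gene on its own strand, more than the 3575 bases of its canonical transcript. Reads that lie within those bases can fit both, and how counting divided them was not tested. In HEK293T cells the values of CARS2, WARS2, EARS2, FARS2, NARS2 and PARS2 were -0.02, -0.05, -0.17, -0.22, 0.12 and 0.29, and none passed the test. EARS2 passed there with the compared groups alone and with library sizes without TMM (adjusted p down to 0.026, edgeR). PARS2 passed there with the compared groups alone (adjusted p = 0.0137, edgeR).

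Each cytosolic enzyme was next set against the mitochondrial enzyme for the same amino acid, within each library. The pairs numbered 16, with EPRS1 set against both EARS2 and PARS2, and TARS3 and FARSB were not among them because TARS1 and FARSA stood for threonine and phenylalanine. The ratio within a library needs no scaling between libraries. Per kilobase of the GENCODE 44 canonical transcript, the cytosolic gene was the higher of the pair after DMSO in OCI-AML3 cells in all pairs but IARS1 and IARS2. IARS1 was at 58.2 CPM per kb after DMSO for 4 h in OCI-AML3 cells against 86.1 for IARS2, the highest mitochondrial level. After tunicamycin the levels were 82.6 and 70.4 CPM per kb. In HEK293T cells IARS1 was the higher after DMSO as well, at 94.8 against 83.1 CPM per kb.

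The ratio of the cytosolic to the mitochondrial gene was higher after tunicamycin, with no overlap between libraries, in 12 of 16 pairs in each of the 3 comparisons. It was lower with no overlap in 1 pair at 4 h and in 3 pairs in each of the 24 h comparisons. TARS3 over TARS2 changed by -0.33, 1.26 and 0.13 on the log2 scale at 4 h, at 24 h and in HEK293T cells, and FARSB over FARS2 by -0.23, 0.00 and 0.28, of which only TARS3 over TARS2 at 24 h and FARSB over FARS2 in HEK293T cells did not overlap. With these 2 pairs, added after the data had been examined, 12, 13 and 13 of 18 pairs were higher and 1, 3 and 3 lower with no overlap. Across all genes tested, 22.9%, 24.98% and 23.4% were higher and 23.4%, 27.8% and 25.7% lower with no overlap at 4 h, at 24 h and in HEK293T cells, a share of single genes and not of ratios. The median change of the log2 ratio over the 16 pairs was 0.55 at 4 h, 0.74 at 24 h and 0.63 in HEK293T cells. The largest change was 3.67-fold for CARS1 over CARS2 at 4 h, 3.86-fold for WARS1 over WARS2 at 24 h and 2.15-fold for LARS1 over LARS2 in HEK293T cells. RARS1 over RARS2 was lower in all 3 comparisons, with changes of -0.29, -0.40 and -0.47 on the log2 scale. VARS1 over VARS2 (-0.86 and -0.44) and HARS1 over HARS2 (-0.24 and -0.16) were lower at 24 h in both lines, and FARSA over FARS2 overlapped in all 3. The ratios that include MARS1, HARS1, HARS2, SARS2 or VARS2 carry the limits given for the shared exons of these genes. Exons of AARS1, CARS1, FARSA (25 bases), LARS1 (42), WARS1 and YARS1 (396) also overlap another gene on the opposite strand. So do those of AARS2 (235), CARS2 (334), LARS2 (81), NARS2 (111), WARS2 (168) and YARS2 (388). EARS2 shares 203 bases with a gene on its own strand, and TARS2 shares 66. The part of these bases in the ratios was not tested.

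**Figure D4:**
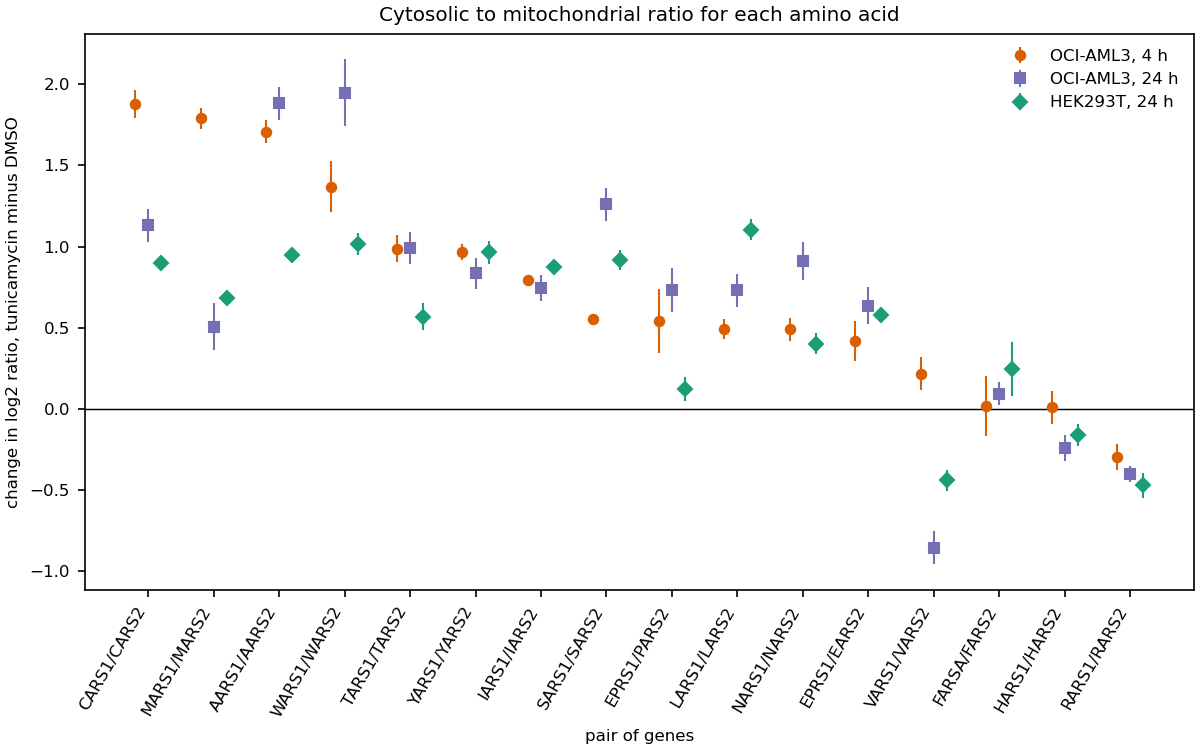
Change in the log2 ratio of cytosolic to mitochondrial gene, tunicamycin minus DMSO, for the 16 pairs, with bars of 1 standard error from 3 libraries a group. The 12 pairs that are higher with no overlap lie above 0 in all 3 comparisons, as does FARSA/FARS2, whose libraries overlap (0.02, 0.09 and 0.25), while RARS1/RARS2 lies below 0 in all 3 and VARS1/VARS2 at 24 h in both lines.

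The DMSO groups of OCI-AML3 cells showed how the family stood without tunicamycin. DMSO for 4 h and untreated cells did not differ in any of the 36 genes at an adjusted p of at most 0.05 by edgeR, limma voom or DESeq2 (3, 4 and 3 of the 36 had an unadjusted p under 0.05), and over all genes edgeR called 0 (0% in either direction, with 1160 at an unadjusted p under 0.05), voom 0 and DESeq2 19. Between DMSO at 24 h and DMSO at 4 h, 14 cytosolic genes fell and 1 rose, and 5 mitochondrial genes fell and 1 rose, where 21.6% of all genes fell and 21.01% rose. The falls were largest for MARS2 (-0.75), EPRS1 (-0.57) and RARS1 (-0.52), and the rises were those of QARS1 (0.43) and TARS2 (0.30). With library sizes in place of TMM factors, the median of all genes in this comparison shifted by -0.12 and the mitochondrial falls numbered 10.

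Whether the tunicamycin effect differed between the times in OCI-AML3 cells (24 h against 4 h) was tested by an interaction term. The log2 fold change was lower at 24 h for 12 cytosolic and 9 mitochondrial genes and higher for 1 of each. Of all genes, 20.3% were lower and 15.1% higher. A lower value can be a smaller rise, a deeper fall or a turn from rise to fall. In the fit of the compared groups alone 5 mitochondrial genes were lower at 24 h. Of the 9 mitochondrial genes, AARS2, LARS2 and YARS2 fell at both times, and further at 24 h. SARS2, WARS2, FARS2, NARS2, TARS2 and EARS2 were above 0 at 4 h and below 0 at 24 h, not all of them called. Among the genes that rose at both times, CARS1 rose less at 24 h by 0.78, MARS1 by 0.59 and GARS1 by 0.52 (log2 scale). SARS2 (-0.97) and VARS1 (-0.87) had the largest differences toward a lower value at 24 h. TARS3 (1.15) and MARS2 (0.70) were the 2 higher genes. MARS2 fell by 0.79 at 4 h and stood at -0.09 at 24 h. For WARS1 and AARS1 the difference did not pass the test.

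The effect at 24 h in HEK293T cells was compared with that in OCI-AML3 cells in the same way. The log2 fold change was higher in HEK293T cells for 8 cytosolic and 4 mitochondrial genes and lower for 3 cytosolic and 0 mitochondrial genes. Of all genes, 15.9% were higher and 10.9% lower. A higher value can be a larger rise, a smaller fall or a rise in place of a fall. The 3 lower genes were TARS3 (-0.91), WARS1 (-0.73) and AARS1 (-0.62). LARS1 (0.51), KARS1 (0.45) and FARSB (0.45) led the higher cytosolic genes, and PARS2 (0.63) and SARS2 (0.61) the mitochondrial ones. The count of 8 went to 4 to 7 with a library left out.

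Genes that act beside the synthetases were listed by role and counted in the same fits, in which 18.5% of all genes rose and 18.9% fell at 4 h, 23.5% and 27.7% at 24 h, and 12.6% and 13.1% in HEK293T cells. Of the 3 scaffold genes of the multi-synthetase complex (AIMP1, AIMP2 and EEF1E1), AIMP2 rose at 4 h (0.30) and fell at 24 h (-0.28), and 0 passed the test in HEK293T cells. Of 6 cytosolic elongation factors, 2 rose and 0 fell at 4 h, 0 rose and 2 fell at 24 h, and 2 rose and 0 fell in HEK293T cells. EEF2, which moves the ribosome along the message, had log2 fold changes of 0.44, -0.06 and 0.34, of which the first and last passed the test. Of 16 genes of tRNA production, processing and export, 6 rose and 4 fell at 4 h, 4 rose and 9 fell at 24 h, and 2 rose and 3 fell in HEK293T cells, the last of these near the shares over all genes. XPOT, which exports tRNA from the nucleus, rose by 0.74, 1.00 and 1.24, and TSEN15, a subunit of the tRNA splicing endonuclease, by 0.82, 0.37 and 0.76. POP1, a subunit of RNase P, fell by 0.74, 0.72 and 0.75 on the log2 scale.

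In mitochondria, EARS2 joins glutamate to glutamine tRNA, an amidotransferase built of QRSL1, GATB and GATC converts it to glutamine on the tRNA, and MTFMT formylates the initiator methionine tRNA. Of these 4 genes, QRSL1 rose at 4 h (0.59) and in HEK293T cells (0.28), MTFMT fell at 4 h (-0.41) and at 24 h (-0.50), GATB fell at 24 h (-0.46), and GATC did not pass the test. Of 8 mitochondrial translation factors, 2 rose and 2 fell at 4 h, 2 rose and 3 fell at 24 h, and 0 rose and 2 fell in HEK293T cells, beside the shares over all genes given above. TUFM, the elongation factor that brings charged tRNA to the mitochondrial ribosome, had log2 fold changes of 0.09, -0.89 and -0.23, of which the falls at 24 h passed the test. Of 5 genes of trans-editing and selenocysteine synthesis, PSTK and SEPSECS, which convert seryl-tRNA to its selenocysteine form, rose at 4 h (0.82 and 0.83). At 24 h SEPSECS rose (0.47) and DTD1 (-0.47) and AARSD1 (-0.40) fell, and in HEK293T cells PSTK rose (0.67).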

How the data were processed

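RNA-sequencing of 21 libraries in 7 groups of 3 was analysed. According to the study's methods, paired-end reads of polyadenylated RNA were trimmed with seqtk, aligned to GRCh38 with STAR and counted with RSEM on Ensembl release 101. The authors deposited these expected counts for every gene, without normalisation or filter, and they were rounded to whole numbers. Expected counts divide reads that fit several genes, but the annotated pseudogenes of the 36 synthetase genes held at most 0.00501% of their counts. Every column was matched to a sample by its name, and 0 columns were left without one. Libraries held 13838480 to 19961819 counts (median 16657733), and a count of 0 would allow up to 3 counts, or 0.150 to 0.217 CPM.

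A gene was kept where 8 or more of the 21 libraries reached 1 CPM, which left 14012 genes. The main test was the quasi-likelihood test of edgeR 4.0.16 (with limma 3.58.1 and R 4.3.3) on TMM-scaled counts, with 1 mean per group over all 7 groups and p-values adjusted over all genes tested by Benjamini and Hochberg. Calls were made up to an adjusted p of 0.05, and a second count required also a log2 fold change above 1 or below -1. CPM values use the TMM-scaled library sizes. Each standard error was taken from the log2 fold change and the root of its F statistic. The study's methods used limma voom, which was run here as an alternative, as were DESeq2 1.42.0 (Wald test), its size factors in place of TMM, unscaled library sizes, looser filters (1 count in all, or 3 libraries at 1 CPM), a replicate block, separate fits for the compared groups, a log2 fold threshold of 0.5 or none, unrounded counts for the pairs, and each library left out in turn. A count over members whose exons overlap no other gene was added once the data had been examined.

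The 36 genes and the lists of related genes were chosen with earlier results of these data known, so no list was tested as a set. All 36 are named. Values of every library are given for the 2 largest rises and 2 largest falls of each class in each comparison and for HARS1 and HARS2, and of other lists at most 3 genes in each direction are named. Exon overlaps and transcript lengths come from GENCODE release 44, and start regions from RefSeq on GRCh38.p14. Data were simulated with 200 changed genes among 14012 (tunicamycin for 4 h in OCI-AML3 cells). Of those changed by 0.5 on the log2 scale 67% were recovered, and of those changed by 1.5 97%, with 8 false calls. In the measured libraries the main test called 5249 genes in this comparison. Recovery and false calls with that many changed genes were not tested. In a simulated comparison of HEK293T cells at 24 h without change, 0 calls were made. Figures were drawn with matplotlib 3.10.9.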

Additional observations from a re-analysis of the deposited data

Results flagged for a closer look

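The genes in this part are those for which the tunicamycin effect differed between 2 times or 2 cell lines by a test of the difference itself (the interaction term of edgeR's quasi-likelihood model, adjusted p of at most 0.05 over all genes tested). Values are differences between log2 fold changes, and the 2 sets of differences share the OCI-AML3 libraries of 24 h. A difference below 0 can be a smaller rise, a deeper fall or a fall in place of a rise, and one above 0 the reverse.

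Of the 36 synthetase genes, 23 differed between the times in OCI-AML3 cells, as did 4953 of all 14012 genes tested (20.3% lower and 15.1% higher at 24 h). The effect at 24 h minus that at 4 h was above 0 for MARS2 0.70 and TARS3 1.15. It was below 0 for the cytosolic genes VARS1 -0.87, CARS1 -0.78, MARS1 -0.59, KARS1 -0.53, FARSA -0.53, GARS1 -0.52, YARS1 -0.45, TARS1 -0.43, QARS1 -0.39, FARSB -0.38, SARS1 -0.26 and HARS1 -0.24. It was below 0 for the mitochondrial genes SARS2 -0.97, WARS2 -0.62, FARS2 -0.59, NARS2 -0.53, TARS2 -0.44, LARS2 -0.44, AARS2 -0.34, YARS2 -0.32 and EARS2 -0.28, a count of 9 that went to 5 in the fit of the compared groups alone.

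Between HEK293T and OCI-AML3 cells at 24 h, 15 of the 36 differed, as did 3761 of all 14012 genes tested (15.9% higher and 10.9% lower in HEK293T cells). The effect in HEK293T cells minus that in OCI-AML3 cells was below 0 for TARS3 -0.91, WARS1 -0.73 and AARS1 -0.62. It was above 0 for the cytosolic genes IARS1 0.22, SARS1 0.27, QARS1 0.29, VARS1 0.33, YARS1 0.42, FARSB 0.45, KARS1 0.45 and LARS1 0.51 and for the mitochondrial genes AARS2 0.31, NARS2 0.53, SARS2 0.61 and PARS2 0.63. No explanation was tested for these differences.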

How the results depend on the processing

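Of 108 values (36 genes in 3 tunicamycin comparisons), 84 kept their side of the threshold in all 14 alternatives, and 58 of the 74 called values did so. Whether the 3 replicate numbers pair the samples is not settled. With group means taken out, same-numbered tunicamycin and DMSO libraries had weak correlations of -0.139 to 0.132. With the replicate block, 1 call changed in these comparisons, since HARS2 at 4 h passed the test, and the genes called over all genes went from 5249 to 5411 at 4 h, 7163 to 7250 at 24 h and 3606 to 3787 in HEK293T cells. In HEK293T cells each library correlated best with its own number. In OCI-AML3 cells replicates 1 and 3 did so at 4 h and replicate 1 at 24 h. Depth was not varied, so its part in the calls that changed was not tested, and no cause was tested for the shifts that follow.

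Without a fold threshold the counts past both thresholds became those at the adjusted p alone. Cytosolic rises were then 13, 12 and 12 and falls 3, 7 and 3 (4 h, 24 h, HEK293T), and mitochondrial rises 2 at 4 h and falls 6, 11 and 5. With a threshold of 0.5, cytosolic rises were 10, 7 and 10 and cytosolic falls at 24 h 2, and mitochondrial falls were 1, 4 and 1. With a library left out, cytosolic rises past both ranged from 4 to 7 at 4 h and from 0 to 1 in HEK293T cells, where the fit of the compared groups alone gave 1.

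Cytosolic falls at 4 h numbered 1 in the fit of the compared groups alone and with the filter of 1 count, and 1 to 3 with a library left out (1 without tunicamycin 4 h replicate 1 or 2). Mitochondrial rises at 4 h ranged from 1 to 3 with a library left out (1 without DMSO replicate 2 or tunicamycin replicate 2). Mitochondrial falls at 24 h in OCI-AML3 cells numbered 7 with the compared groups alone and ranged from 7 to 10. In HEK293T cells they numbered 3 with the filter of 1 count and ranged from 2 to 4 (3 or fewer without any library but DMSO replicate 3), and 1 mitochondrial gene rose with the compared groups alone. For the interaction of time, mitochondrial genes with a lower log2 fold change at 24 h numbered 5 with the compared groups alone. Cytosolic genes with a higher log2 fold change in HEK293T cells numbered 4 with the filter of 1 CPM in 3 libraries. They also numbered 4 with the compared groups alone and with library sizes without TMM. They numbered 5 with DESeq2 size factors or the filter of 1 count, and 4 to 7 with a library left out.

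The cytosolic median at 24 h was 0.44 with 1 CPM in 3 libraries, 0.42 with the compared groups alone, 0.44 with DESeq2 size factors and with DESeq2, 0.38 with the filter of 1 count, 0.48 with library sizes without TMM, and 0.40 to 0.49 with a library left out. At 4 h it was 0.44 with the filter of 1 count and 0.46 to 0.52 with a library left out, and in HEK293T cells 0.43 with library sizes and 0.43 to 0.49 with a library left out. The mitochondrial median at 4 h was -0.12 with the filter of 1 count and -0.14 to -0.0524 with a library left out. Members without exon overlap (9 cytosolic and 5 mitochondrial genes, chosen after seeing the data) had cytosolic medians of 0.45, 0.49 and 0.36 and mitochondrial medians of -0.0668, -0.25 and -0.12. Their cytosolic rises numbered 5, 6 and 5, with 0 past both thresholds, and cytosolic falls 2, 3 and 2. Their mitochondrial falls numbered 2, 3 and 1.

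For DMSO at 24 h against 4 h, library sizes without TMM gave medians of -0.37 (cytosolic) and -0.25 (mitochondrial) and 10 mitochondrial falls. Cytosolic rises ranged from 1 to 2 and mitochondrial rises from 1 to 2 with a library left out. For DMSO at 4 h against untreated cells the medians ranged from -0.0253 to 0.0302 (cytosolic) and from -0.0467 to 0.0502 (mitochondrial).

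The values that changed sign were close to 0 and not called. They were, with library sizes without TMM, AARS1 -0.084 (DMSO 24 h against 4 h), FARSA -0.00283, QARS1 -0.019 and VARS2 -0.024 (HEK293T), RARS2 0.047 (24 h) and TARS2 -0.00831 (4 h). With the filter of 1 count they were EARS2 -0.00424 and TARS2 -0.027 (4 h), and QARS1 -0.00491 and VARS2 -0.00989 (HEK293T). FARSB at 4 h was 0.0041 with 1 CPM in 3 libraries, 0.013 with the compared groups alone, 0.0024 with limma voom and 0.00014 with the replicate block. RARS2 at 24 h was 0.0049 with 1 CPM in 3 libraries, 0.0025 with DESeq2 size factors and 0.00088 with DESeq2.

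With a library left out the values at 4 h ranged from -0.032 to 0.12 (EARS2), -0.049 to 0.068 (FARSB), -0.117 to 0.0085 (KARS1), -0.185 to 0.049 (PARS2) and -0.027 to 0.083 (TARS2). At 24 h they ranged from -0.084 to 0.0068 (MARS2) and -0.047 to 0.048 (RARS2). In HEK293T cells they ranged from -0.057 to 0.017 (CARS2), -0.022 to 0.066 (FARSA), -0.0092 to 0.045 (QARS1), -0.039 to 0.085 (VARS2) and -0.104 to 0.02035 (WARS2). For DMSO at 24 h against 4 h they ranged from -0.0044 to 0.065 (AARS1), -0.142 to 0.071 (CARS2) and -0.167 to 0.047 (WARS2).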
